A study of Mus musculus with 7 samples.

Results

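The 4 tumours with Cr1l over-expression, out of the 7 tumours of the series, are described here one beside another. They were chosen by their label, as the tumours numbered 1 to 4, and are called Cr1l 1 to Cr1l 4. Each grew under the skin of C57BL/6 mice from B16mhgp100, a line of the mouse melanoma B16, after the cells had been made to over-express Cr1l. All 4 tumours were treated with anti-PD1, which blocks a brake on T cells: each of 4 doses held 200 µg, the first was given on day 10 after inoculation, 2 were given per week, and harvest came 1 day after the last. Whole tumours were ground, so the RNA comes from melanoma cells and from every host cell in the piece. The labels do not name the vector or promoter that drives Cr1l, the number of cell clones or the age and sex of the mice, nor do they say whether each tumour came from its own mouse. Nothing in the labels sets the 4 tumours apart, so their differences are a description of spread within 1 group, and no test was made.

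Cr1l encodes Crry, a membrane protein of mouse cells that restrains complement at the step where C3 is split. B16 is a pigmented melanoma that carries little MHC class I unless interferon gamma is present, and it is known for sparse infiltration by T cells. In such tumours the melanoma cells make melanin enzymes such as tyrosinase, while macrophages, fibroblasts, vessels and lymphocytes belong to the host. Because the whole tumour is measured, a low level of a lineage's genes can come from fewer cells of that lineage or from less RNA per cell, and these cannot be told apart. Expression is given in TPM, the transcript abundance measure that is scaled for transcript length and expresses each gene as a part of the whole, so that a larger part for host genes leaves a smaller part for melanoma genes.

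Values for the 4 tumours are given below in the order Cr1l 1, Cr1l 2, Cr1l 3 and Cr1l 4. Cr1l itself was at 76.4, 78.6, 77.9 and 83.6 TPM, a spread of 3.12 TPM (SD, n = 4) around a mean of 79.1. The overexpressed gene was therefore at nearly the same level in each tumour, with an SD of 0.06 on log2(TPM + 1). The table does not separate added from native Cr1l. All 8 melanoma markers were above 0 in every tumour, with a summed level of 20406, 18950, 9173 and 10457 TPM, so the defining genes of melanoma were present in all 4. The number of genes at 1 TPM or more ranged from 14119 to 15352. The library of Cr1l 3 stood apart in its content of skeletal muscle and skin transcripts, which are described at the end with each result that rests on it, and the number of reads per tumour is unknown, since TPM keeps no depth.

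Of 28233 genes in the table, 15018 averaged 1 TPM or more in these 4 tumours. For each of these genes the SD of log2(TPM + 1) over the tumours was taken as its spread, so that an SD of 1 stands for a typical deviation of 2-fold. The median SD was 0.3, the quartiles were 0.179 and 0.528, and 5% of genes were above 1.35. In all, 1567 genes (10.4%) had an SD of at least 1, and 1129 genes (7.52%) had an SD under 0.1. The spread depended on the level. The median SD was 0.479 among genes with a mean of 1 to 2 TPM, 0.262 at 10 to 30 TPM and 0.195 at 1000 TPM or more. Near the thresholds, the B cell receptor gene Cd79a was kept with a mean of 1.01 TPM and the T cell gene Cd96 was left out with 0.990 TPM. The endothelial gene Egfl7 was just inside an SD of 1 with 1.005 and the pericyte gene Rgs5 just outside it with 0.999.

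**Figure D1:**
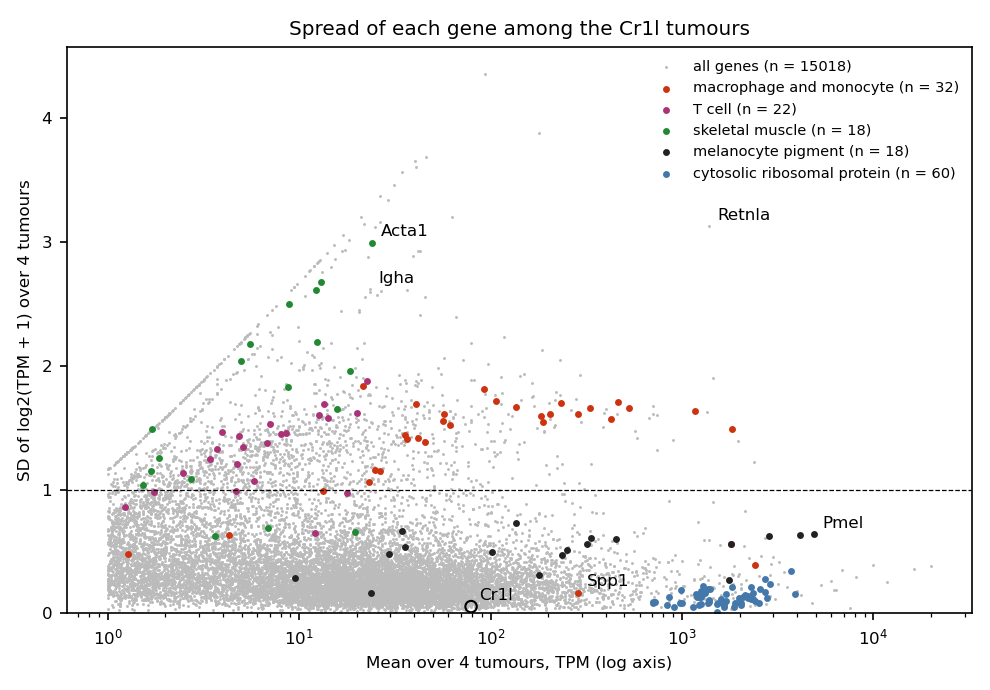
Spread of each gene among the 4 Cr1l tumours, as the SD of log2(TPM + 1), against its mean TPM on a log axis; each point is 1 of 15018 genes, coloured points are members of 5 lists, and the dashed line marks an SD of 1. Macrophage and skeletal muscle genes lie mostly above the line, melanocyte pigment and ribosomal protein genes below it, and Cr1l (circle) lies at 0.06.

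Among named genes that averaged at least 100 TPM, Retnla had the largest SD. Retnla, a secreted protein of alternatively activated macrophages, was at 35.6, 117, 3972 and 1417 TPM. It was lowest in Cr1l 1, and its SD was 3.12 log2 units. The next in that ranking were Clec10a, a lectin of macrophages and dendritic cells, Folr2, a folate receptor of tissue macrophages, Gpx3, a secreted glutathione peroxidase, and Alox5ap, which serves leukotriene synthesis. Clec10a was at 11.4, 18.7, 221 and 222 TPM, and Folr2 at 18.5, 39.0, 364 and 319 TPM. The complement component C3 was at 39.8, 71.1, 574 and 482 TPM, and the chemokine Ccl8 at 211, 352, 3512 and 1718 TPM. In each of these genes Cr1l 3 and Cr1l 4 lay above Cr1l 1 and Cr1l 2. The 15 genes of this ranking also held F13a1, Rnase4, Cbr2, Dcn, Lsp1, Cxcl12, Cd52 and Ly6c1, with SDs from 1.75 to 1.92, and all 15 were lowest in Cr1l 1.

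Over all levels, 17 genes had an SD of at least 3, and all but Retnla of these were predicted genes or single receptor segments, which are not named. Among the rest, the 25 genes with the largest SD were mostly of 5 kinds. Acta1, Tnnc2, Tnnt3, Myl1 and Tnni2 are parts of the contractile apparatus of skeletal muscle, and Lor, Krtdap and Krt15 belong to skin. Retnla, Rnase2a, Ear2, Fcna, Clec10a and S100a8 are genes of macrophages, eosinophils or neutrophils, and Igha and Ighg3 are antibody heavy-chain constant genes. Ear2, an eosinophil-associated ribonuclease, was at 2.33, 5.78, 103 and 61.3 TPM, and Rnase2a, of the same family, at 0.50, 2.06, 65.2 and 14.8 TPM. Fcna, a ficolin that recognises sugars for the lectin pathway of complement, was at 4.34, 9.28, 122 and 129 TPM. The fifth kind were short or repeated transcripts listed at 0 in at least 1 tumour, namely Snora52, Snord15b, Snora9, Snora73a, Snora73b, Bc1 and Pgk1-rs7. Snora52 was listed at 0, 60.7, 0 and 0 TPM. An exact 0 for such a gene can be a failed estimate, so its spread is not read further. Ngfr and Clec3b complete the 25.

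At the other end, the 15 named genes with the smallest SD among those with a mean of at least 10 TPM had SDs of 0.01 to 0.02. They included Polr3a, the largest subunit of RNA polymerase III, at 12.9, 13.1, 13 and 13 TPM, and Rap2a, a small GTPase, at 26.1, 25.9, 25.6 and 25.6 TPM. Rps29, a ribosomal protein, was at 1534, 1536, 1503 and 1519.8 TPM. Among genes that averaged at least 100 TPM, Hspa5, the main chaperone of the endoplasmic reticulum, was at 568, 537, 556 and 549.6 TPM, and Kdelr1, which returns chaperones to that compartment, at 111, 111, 107 and 107 TPM. Srp14, Pdia6 and Copa, which act in protein export, had SDs of 0.03, 0.03 and 0.04. In the list of chaperones and the unfolded protein response, which holds Hspa5, 4 of 28 members had an SD under 0.1, against 7.52% of all genes. Cr1l, with 0.06, had a smaller SD than most genes of its level, for which the median was 0.234 at 30 to 100 TPM.

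Of 5 short motifs searched in promoters, CCGGAAG differed most in share between steady and variable genes, a sequence feature that the choice of genes did not use. RefSeq's table for GRCm38.p6 gave promoters for 887 of the 1129 genes with an SD under 0.1 and for 869 of the 1567 genes with an SD of at least 1, and the 250 bases before each start were searched on both strands. The letters CCGGAAG, which the ETS family of factors can bind, were in 21.0% of 1127 promoters of steady genes and in 4.52% of 1085 promoters of variable genes. The share was 12.8% over all genes that averaged at least 1 TPM and 6.91% over the 32851 promoters of the table. The letters TATAAA were in 6.03% of the steady and 11.2% of the variable promoters. The share was 6.84% over all genes that averaged at least 1 TPM and 12.4% over all promoters of the table. A match describes the letters in a window and says nothing of binding.

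The 4 tumours were most alike in pairs. Across genes, log2(TPM + 1) of Cr1l 1 and Cr1l 2 had a Pearson correlation of 0.973, and 493 genes differed by at least 2-fold on that scale. Cr1l 3 and Cr1l 4 had 0.95, with 1108 such genes. The other 4 pairs had 0.882 to 0.918, with 2401 to 3156 genes. Genes are not independent, so these values describe the libraries. Along the first principal component, with 70.7% of the variance, the tumours had scores of -58.1, -48.9, 65.1 and 41.9. The second held 18.2%, with scores of -13.1, 5.8, -33.7 and 41.0, and so separated Cr1l 3 from Cr1l 4.

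Gene by gene, the 4 tumours can stand in 24 orders. Cr1l 1 was highest for 32.5% of genes, Cr1l 2 for 21.4%, Cr1l 3 for 29.1% and Cr1l 4 for 16.8%. The order Cr1l 3, Cr1l 4, Cr1l 2, Cr1l 1 was held by 1739 genes (11.6%), and the reverse order by 1740 (11.6%). Among the 1567 genes with an SD of at least 1, the former order was held by 609 (38.9%) and the reverse by 3. Among the 1129 genes with an SD under 0.1 they were held by 52 (4.61%) and 70. The widely spread genes thus ran mostly in 1 direction, with 1031 of 1567 (65.8%) highest in Cr1l 3. Of the 1740 genes with the reverse order, 3 had an SD of at least 1 and 70 had an SD under 0.1.

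**Figure D2:**
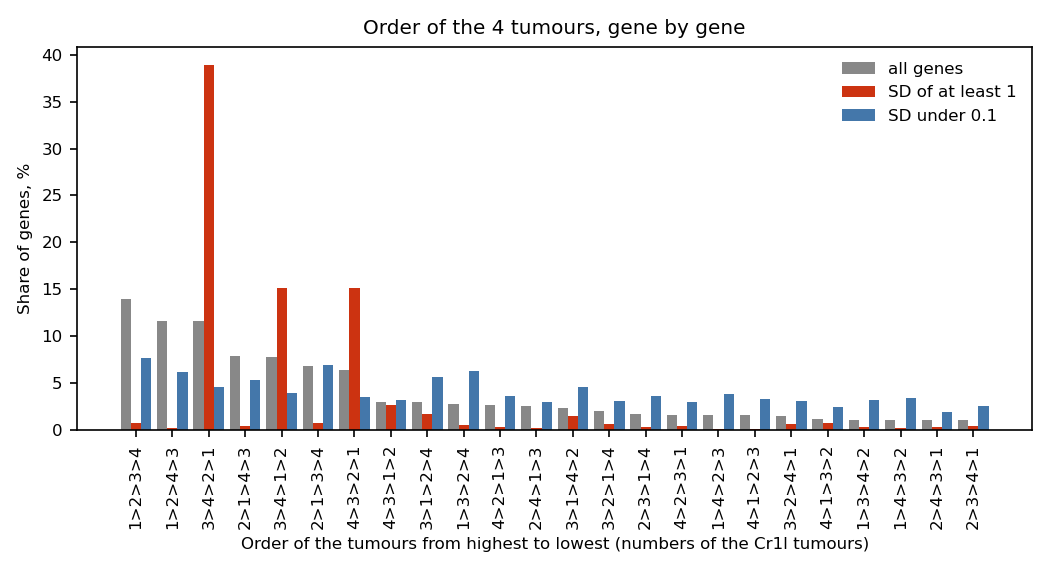
Share of genes, in percent, with each of the 24 possible orders of the 4 tumours from highest to lowest, for all 15018 genes (grey), 1567 genes with an SD of at least 1 (red) and 1129 genes with an SD under 0.1 (blue). The red bar reaches 38.9% for the order 3, 4, 2, 1, and the blue bars are spread over all orders, with 4.61% for that order.

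Some genes set a single tumour apart by at least 1 log2 unit from the next. Cr1l 1, Cr1l 2, Cr1l 3 and Cr1l 4 were above the next tumour by this margin for 0.346%, 0.566%, 3.6% and 0.792% of genes, and below it for 0.799%, 0.439%, 0.393% and 0.473%. Cr1l 3 thus stood alone at the top for 540 genes, against 52 to 119 for the other tumours. In Cr1l 4 the circadian regulator Per2 was at 13 TPM against 0.35, 0.50 and 1.58 in Cr1l 1 to Cr1l 3. Scara5, a ferritin receptor of fibroblasts, was at 1.15, 2.07, 8.96 and 36.0 TPM, and Chrdl1, a secreted inhibitor of bone morphogenetic proteins, at 0.55, 1.40, 3.07 and 13.9 TPM. These 3 genes were therefore highest in Cr1l 4.

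Genes low in Cr1l 4 alone included Dll4, the Notch ligand of sprouting vessels, at 5.00, 5.19, 7.61 and 1.07 TPM. Kcne3, a potassium channel subunit, was at 9.51, 8.37, 14.0 and 1.18 TPM, and Igfbp3, which binds insulin-like growth factors, at 115, 91.2, 88.4 and 30.2 TPM. Aacs, an enzyme that activates acetoacetate for lipid synthesis, was at 75.0, 57.1, 102 and 20.7 TPM. Low in Cr1l 3 alone were Gsta3, a glutathione transferase, at 34.1, 26.6, 3.24 and 18.9 TPM, and Nr1i2, a nuclear receptor for foreign compounds, at 7.72, 7.04, 0.98 and 8.11 TPM. Other genes were highest in Cr1l 1. Diras1, a small GTPase, was at 10.6, 4.16, 3.46 and 1.42 TPM, and Fgl1, a ligand of the inhibitory receptor LAG-3, at 3.91, 0.10, 0.20 and 0.34 TPM.

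In 36 lists of genes, the mean of log2(TPM + 1) over the members with a mean of at least 1 TPM was taken for each tumour. Cr1l 3 had the highest mean in 22 lists, among them all 15 immune and all 4 stromal lists. Of 252 immune genes, 144 had an SD of at least 1, and of 67 stromal genes 32 did. Only 2 of 82 genes in the melanoma lists and 5 of 255 in the lists of metabolism and stress did, against the 10.4% of all genes. A low immune gene passed the filter through the tumour where it was high, so the summed TPM over all members, without the filter, is given beside most lists. Without the filter, Cr1l 3 was the highest tumour for 31.4% of 26622 genes above 0.

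**Figure D3:**
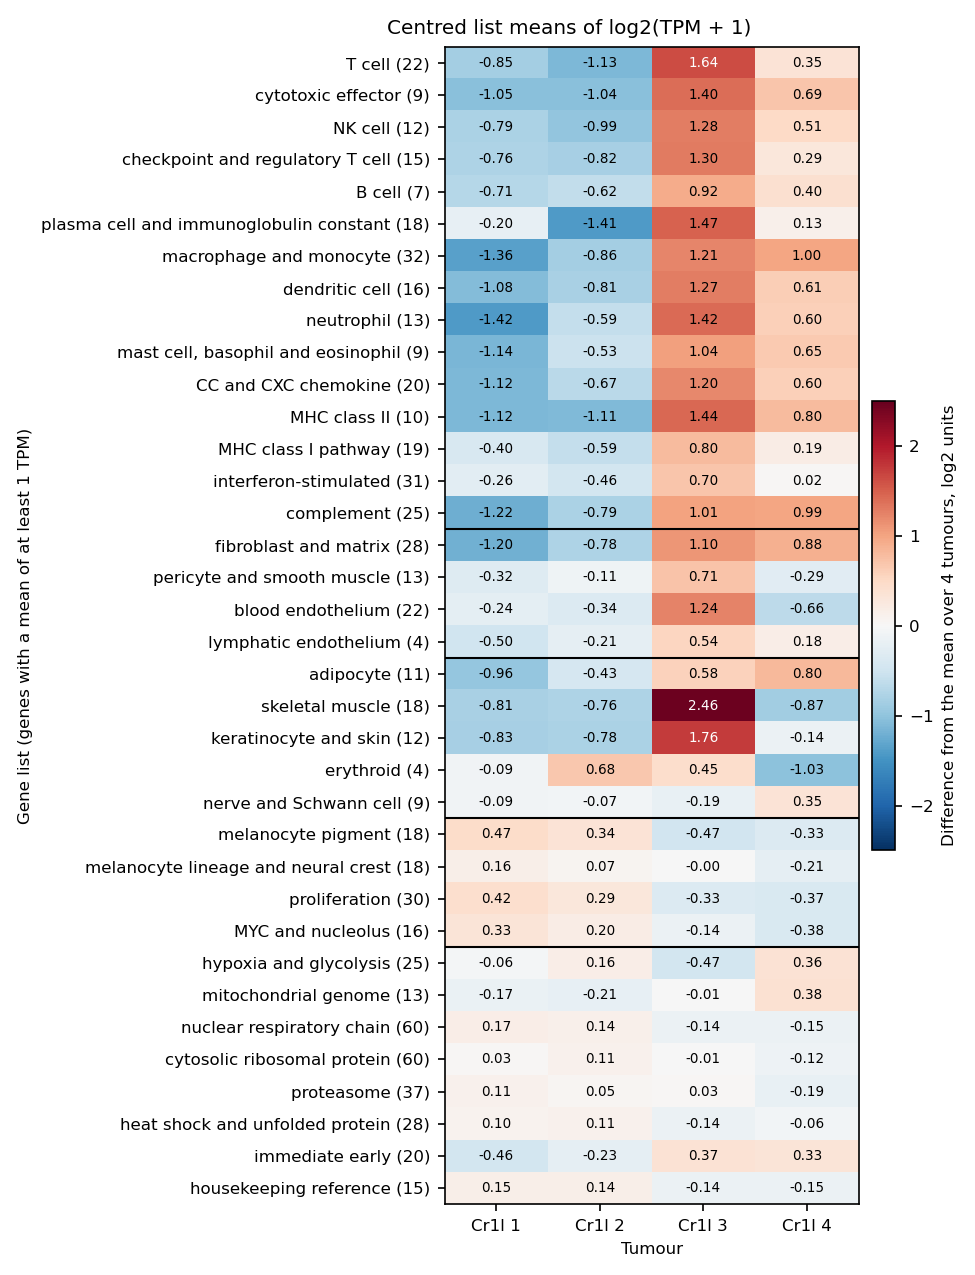
Mean of log2(TPM + 1) of each gene list in each tumour minus its mean over the 4 tumours, in log2 units, with the number of genes in brackets; lines part immune, stromal, adjacent tissue, melanoma and metabolic lists. Immune and fibroblast lists are high in Cr1l 3 and Cr1l 4, skeletal muscle is high in Cr1l 3 alone, and melanocyte pigment lies between -0.47 and 0.47.

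Macrophage and monocyte genes, all 32 of which passed the filter, summed to 6069.6, 6476, 17080 and 15001 TPM. Their mean on the log2 scale was 4.93, 5.43, 7.50 and 7.28, an SD of 1.30. Of the 32 genes, 26 had an SD of at least 1, against 10.4% of all genes. Csf1r, the receptor for the growth factor of macrophages, was at 14.4, 23.6, 188 and 146 TPM. Adgre1, which encodes F4/80, was at 13.7, 20.2, 112 and 101 TPM, and Lyz2, lysozyme of myeloid cells, at 214, 431, 2223 and 1832 TPM. For these 3 genes the tumours stood in the order Cr1l 3, Cr1l 4, Cr1l 2, Cr1l 1. So they did for 19 of the 32 members, against 11.6% of all genes. Another 7 members, among them Cd68, had the order Cr1l 4, Cr1l 3, Cr1l 2, Cr1l 1, against 6.41% of all genes. In all, Cr1l 4 was highest for 9 members, against 16.8% of all genes. Arg1, which breaks down arginine, was at 37.2, 75.3, 276 and 368 TPM, and Nos2, which makes nitric oxide from it, at 8.86, 9.86, 37.0 and 44.1 TPM. The ratio of Arg1 to Nos2 was 4.20, 7.64, 7.46 and 8.33.

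A few members of the macrophage list did not share this spread. Spp1, osteopontin, was at 246, 275, 308 and 319 TPM (SD 0.17 log2 units), Apoe, a lipid carrier, at 1873, 1829, 2797 and 3112 TPM, and Gpnmb at 2469.6, 2259.7, 1112 and 1354 TPM. Gpnmb, a melanosome glycoprotein made by melanocytes as well as macrophages, stood in the order of the pigment genes. Spp1 and C1qc are shown with the stretch around the letters GAGGAAGT, which the myeloid factor PU.1 can bind, since both hold them and yet differ in spread; the matching letters are in capitals on the strand of the gene, 5′ to 3′, from RefSeq for GRCm38.p6. The Spp1 stretch is chr5:104434976-104435027 on the plus strand and the C1qc stretch chr4:136893080-136893131 on the minus strand.
Spp1: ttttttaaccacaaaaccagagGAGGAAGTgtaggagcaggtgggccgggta
C1qc: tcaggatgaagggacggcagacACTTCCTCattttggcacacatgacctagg
C1qc, a chain of the C1q complex, was at 64.9, 99.4, 623 and 537.5 TPM, an SD of 1.66. The motif was in 4 of 29 promoters of macrophage genes (13.8%), against 2.44% of all promoters, and these belong to 3 of 22 genes, since a Ly6c2 site counts for both of its starts.

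Other myeloid lists had the same order of means. Neutrophil genes summed to 29.2, 70.4, 361 and 195 TPM, with the alarmin S100a8 at 0.65, 7.86, 57.6 and 20.7 TPM and its partner S100a9 at 3.19, 9.57, 82.7 and 19.2 TPM. Ly6g, the marker that defines mouse neutrophils, was listed at 0 in Cr1l 1, Cr1l 2 and Cr1l 3 and at 0.44 TPM in Cr1l 4. Mast cell, basophil and eosinophil genes summed to 33.4, 44.8, 139.8 and 113 TPM, and Mcpt4, a mast cell chymase, was at 2.82, 5.38, 24.2 and 28.6 TPM. Dendritic cell markers were low in all 4 tumours, with Flt3, the receptor for their growth factor, at 0.41, 0.77, 7.32 and 5.13 TPM. Clec9a, which marks cross-presenting dendritic cells, was at 0.46, 1.64, 6.78 and 6.54 TPM, and Xcr1, of the same cells, at 0.23, 0.25, 3.11 and 1.99 TPM. In each of these myeloid lists the summed level was lowest in Cr1l 1.

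By list mean, the T cell, NK cell, checkpoint and plasma cell lists had the same pair of high tumours, with Cr1l 2 lowest. The checkpoint means of Cr1l 1 and Cr1l 2 were close, at 1.98 and 1.92, and by summed TPM Cr1l 1 was lower, at 75.3 against 78.9. The B cell list had Cr1l 1 lowest by mean, at 1.16 against 1.25 in Cr1l 2, but Cr1l 2 lowest by summed TPM, at 17.6 against 18.3. The 24 T cell genes summed to 65.4, 45.8, 464 and 172 TPM, so the level in Cr1l 3 was 10.1-fold that in Cr1l 2. Cd3e, a chain of the T cell receptor complex, was at 3.03, 1.10, 20.7 and 7.39 TPM, and Trac, the alpha constant gene, at 4.40, 2.32, 39.9 and 10.0 TPM. Cd8a, of cytotoxic cells, was at 1.54, 1.01, 18.4 and 7.36 TPM, and Cd4, of helper cells, at 1.43, 1.80, 18.0 and 5.91 TPM. Without any filter all 24 T cell genes were highest in Cr1l 3, against 31.4% of all genes. Of the 22 members with a mean of at least 1 TPM, 16 had the order Cr1l 3, Cr1l 4, Cr1l 1, Cr1l 2. Over all genes 7.77% had this order. Tcf7, a factor of naive and memory T cells, departed most from the list, at 13.3, 10.6, 18.9 and 5.81 TPM, with Cr1l 4 lowest. Without Cr1l 3 the SD of the T cell mean was 0.794 in place of 1.27.

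Genes of natural killer cells and of killing followed. NK cell genes summed to 13.3, 10.3, 117 and 67.0 TPM, with Ncr1, the receptor NKp46, at 0.81, 0.21, 7.00 and 4.88 TPM and Klrk1, the receptor NKG2D, at 3.01, 2.18, 37.1 and 20.8 TPM. The 14 cytotoxic effector genes summed to 71.7, 87.5, 517 and 433 TPM. Most of that sum was Srgn, at 48.2, 62.9, 323 and 329 TPM, which was highest in Cr1l 4. Gzma, a granzyme, was at 3.44, 3.10, 49.9 and 17.6 TPM, Gzmb at 4.88, 6.24, 27.7 and 23.1 TPM, and Prf1, perforin, at 2.71, 2.02, 12.1 and 8.71 TPM. Ifng, the main cytokine of these cells, was at 1.41, 0.81, 6.48 and 2.40 TPM. For the 6 of these genes other than Srgn, Cr1l 3 was highest and Cr1l 4 next. Per unit of the T cell markers, the NK markers gave 0.377, 0.403, 0.384 and 0.642, so Cr1l 4 had the highest ratio.

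Checkpoint and regulatory genes were highest in Cr1l 3 for 15 of 16 members without any filter, against 31.4% of all genes, and summed to 75.3, 78.9, 311 and 201 TPM. Pdcd1, which encodes PD-1, the target of the antibody, was at 2.00, 0.86, 8.40 and 4.63 TPM, and per unit of Cd3e it was 0.660, 0.782, 0.406 and 0.627. Cd274, its ligand PD-L1, was at 24.8, 25.3, 61.5 and 48.4 TPM (SD 0.65 log2 units), and Pdcd1lg2, the ligand PD-L2, at 1.21, 1.71, 25.6 and 7.22 TPM (SD 1.65). Foxp3, the factor of regulatory T cells, was at 0.77, 0.73, 7.71 and 1.67 TPM, and its ratio to Cd4 was 0.538, 0.406, 0.428 and 0.283. All 4 genes were highest in Cr1l 3, while the ratios of Pdcd1 and Foxp3 to T cell genes were not.

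Ms4a1, which encodes the B cell surface protein CD20, was at 0.57, 0.06, 0.79 and 0.31 TPM, while antibody genes were far higher. The 20 plasma cell and antibody constant genes summed to 696, 409.5, 1873 and 885 TPM, and the 14 B cell genes to 18.3, 17.6, 126 and 80.8 TPM. Most of the B cell sum was Cd37, at 10.8, 11.5, 96.3 and 62.0 TPM. The B cell receptor gene Cd79a was at 1.11, 0.64, 1.37 and 0.91 TPM, and Cd79b at 1.28, 1.38, 5.42 and 5.65 TPM. Igkc, the kappa light chain, was at 240.0, 93.7, 731 and 274 TPM, Ighm, the heavy chain of IgM, at 159, 65.6, 484 and 182 TPM, and Jchain, which joins IgM and IgA units, at 16.1, 7.74, 66.5 and 16.5 TPM. All 3 had the order Cr1l 3, Cr1l 4, Cr1l 1, Cr1l 2, and Cr1l 1 lay close to Cr1l 4. Per unit of T cell markers the plasma cell markers were 20.5, 13.7, 5.95 and 7.01, so Cr1l 1 had the most antibody transcript for its T cell transcript.

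The class of antibody differed from tumour to tumour. Igha, the heavy chain of IgA, was at 1.34, 0.72, 88.5 and 3.15 TPM, and made 0.754%, 1.08%, 13.9% and 1.26% of heavy-chain TPM. Ighg3, the heavy chain of IgG3, was at 6.00, 0, 22.5 and 59.3 TPM, and made 3.38%, 0%, 3.54% and 23.7%. IgA was thus a feature of Cr1l 3 and IgG3 of Cr1l 4. In Cr1l 2, 98.3% of heavy-chain TPM was Ighm. In the authors' repertoire table, from receptor sequences, IgA was listed at 0.424%, 0%, 11.6% and 1.32% of IGH, again highest in Cr1l 3. IgG as a whole was listed at 6.14%, 0%, 8.21% and 42.6%, with no share for IgG3. All Ighg genes together made 9.64%, 0.45%, 9.69% and 25.6% of heavy-chain TPM. Cr1l 4 was highest in IgG by both measures, though its share differed between them. IgG1 was listed at 1.91%, 0%, 2.5% and 0%, while Ighg1 was at 2.16, 0, 19.4 and 0 TPM.

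The repertoire table also counts the receptor clones of each chain. Heavy-chain (IGH) clones numbered 484, 147, 1567 and 470, in 60, 12, 162 and 44 clonotypes. Light-chain (IGL) clones numbered 734, 243, 2621 and 944. T cell clones numbered 20, 10, 199 and 46 for the alpha chain (TRA) and 19, 28, 274 and 81 for the beta chain (TRB). Cr1l 3 had the most clones of all 4 chains. TRB clones were fewer in Cr1l 1 than in Cr1l 2, with constant genes at 9.39 and 6.55 TPM, and IGH clones were fewer in Cr1l 4 than in Cr1l 1, with constant genes at 250.5 and 177.7 TPM, so clones and transcripts did not give the same order for these chains. Divided by the TPM of the constant genes, the clones came to 1.88 to 2.72 per TPM for IGH, 2.57 to 3.20 for IGL, 4.31 to 4.99 for TRA and 1.83 to 4.27 for TRB, so a 19.9-fold range of TRA clones went with a range of TRA clones per TPM from 4.31 to 4.99. Without Cr1l 3 the range was 4.6-fold for TRA, 4.26-fold for TRB and 3.29-fold for IGH, and without Cr1l 2 it was 3.57-fold for IGL. The clonality of IGH was 0.268, 0.347, 0.235 and 0.285, and that of TRB 0.0385, 0.093, 0.0601 and 0.176. The entropy was highest in Cr1l 3 for all 4 chains, with 6.01 for TRA and 5.61 for IGH, but these measures are not scaled to the number of clones, which differed as given.

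**Figure D4:**
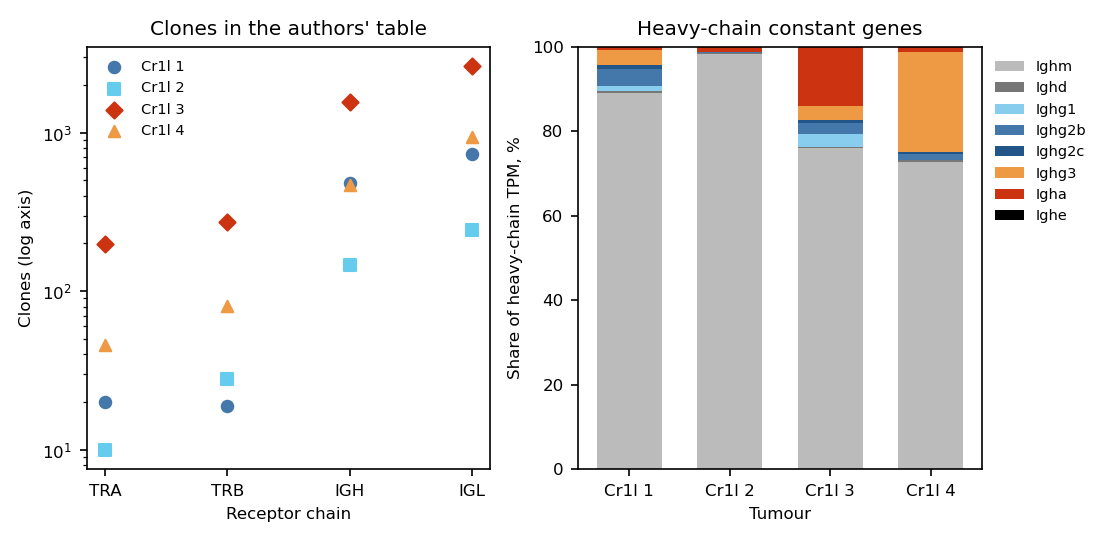
Left, number of clones per receptor chain in the authors' repertoire table on a log axis, with a marker for each tumour; right, share of heavy-chain TPM, in percent, taken by each constant gene in each tumour. Cr1l 3 has the most clones of each chain, Igha takes 13.9% in Cr1l 3, and Ighg3 takes 23.7% in Cr1l 4.

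Antigen presentation spread more for class II than for class I. MHC class II genes, which present antigen on macrophages, dendritic cells and B cells, summed to 1135, 1207, 8896 and 5533 TPM, with H2-Aa at 164, 189, 1472 and 874 TPM. The class I heavy chain H2-K1 was at 1848, 1695, 4045 and 3236 TPM (SD 0.61 log2 units), and its partner B2m at 3995, 3761, 4736 and 4348 TPM (SD 0.15). The nonclassical gene H2-Q6 was at 20.8, 18.4, 166 and 87.6 TPM (SD 1.53). All 19 class I pathway genes, which summed to 8961, 8222, 15525 and 12339 TPM, were highest in Cr1l 3, against 29.1% of all genes. Of the 19, 15 had the order Cr1l 3, Cr1l 4, Cr1l 1, Cr1l 2, against 7.77% of all genes. Psmb8, a catalytic subunit of the immunoproteasome, stood in a ratio of 0.869, 0.792, 2.09 and 1.63 to Psmb5, its counterpart in the standard proteasome.

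Interferon-stimulated genes were highest in Cr1l 3 for 29 of 31 members, against 29.1% of all genes. They summed to 4164, 3705, 6858 and 4745 TPM, and their mean was 5.90, 5.70, 6.86 and 6.18 on the log2 scale. Cxcl9 and Cxcl10, chemokines induced by interferon gamma that attract T cells, were at 23, 18.0, 126 and 22.4 TPM and at 153, 132, 249 and 92.4 TPM. Gbp5, a GTPase of host defence, was at 10.3, 7.18, 51.8 and 19.1 TPM. For Cxcl10, Cr1l 4 was thus under the level of Cr1l 1, and for Cxcl9 these tumours were nearly level. The T cell sum was 172 TPM in Cr1l 4 against 65.4 TPM in Cr1l 1. Cxcl13, which attracts B cells, ran otherwise, at 3.00, 5.31, 14.7 and 33.1 TPM, with Cr1l 4 highest. Cxcl12, made by stromal cells, was at 18.1, 26.6, 224 and 152 TPM.

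Complement genes, of interest because Crry acts on complement, summed to 857, 1069.7, 5071 and 4565 TPM. Of the 25 members with a mean of at least 1 TPM, 17 had an SD of at least 1, against 10.4% of all genes. C6, a component of the membrane attack complex, was at 0.96, 1.68, 25.5 and 23.9 TPM, and the factor D gene Cfd at 0.32, 3.87, 11.5 and 31.1 TPM. The ratio of C3 to Cr1l was 0.521, 0.905, 7.37 and 5.76. Not all members shared this direction. C2, which joins the C3 convertase, was at 173, 152, 108 and 116 TPM, and the membrane inhibitor Cd59a at 16.1, 13.9, 9.54 and 10.8 TPM, both in the reverse order. The complement list mean of 6.14 in Cr1l 3 and 6.12 in Cr1l 4 changed places when the tumours were scaled by another method.

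Fibroblast and matrix genes summed to 2781, 3426, 10907 and 9151 TPM. Col1a1, the main chain of type I collagen, was at 240.4, 339, 1705 and 1316 TPM, Col3a1, of type III collagen, at 261, 455, 2624 and 2065 TPM, and Pdgfra, a growth factor receptor of fibroblasts, at 2.51, 4.88, 36.2 and 28.4 TPM. In these 3 genes Cr1l 3 was highest and Cr1l 1 lowest. Dcn, decorin, was at 35.6, 60.0, 338 and 447 TPM, and Dpt, dermatopontin, at 9.59, 27.5, 142 and 207 TPM. Cr1l 4 was thus highest for these skin matrix proteins, as for 9 of the 28 members, against 16.8% of all genes. Sparc, a matrix protein that melanoma cells also make, was at 1327, 1413, 2004 and 1880.3 TPM, with an SD of 0.30.

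Macrophage and fibroblast markers kept nearly the same proportion in the 4 tumours, whereas the whole lists did so less closely. The whole lists summed to 6069.6 and 2781 TPM in Cr1l 1, and to 17080 and 10907 TPM in Cr1l 3. The 6 macrophage markers divided by the 5 fibroblast markers gave 0.73, 0.79, 0.83 and 0.84, a 1.15-fold range, while either was spread far more against the melanoma markers. Macrophage to melanoma markers gave 0.0195, 0.0363, 0.429 and 0.315, a 22-fold range, and fibroblast to melanoma markers 0.0267, 0.0458, 0.518 and 0.374, a 19.4-fold range. T cell to macrophage markers did not keep a fixed ratio, with 0.0349, 0.0140, 0.0363 and 0.0146. By this ratio Cr1l 1 was near Cr1l 3, and Cr1l 2 near Cr1l 4, so the tumours paired differently than by total immune level.

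**Figure D5:**
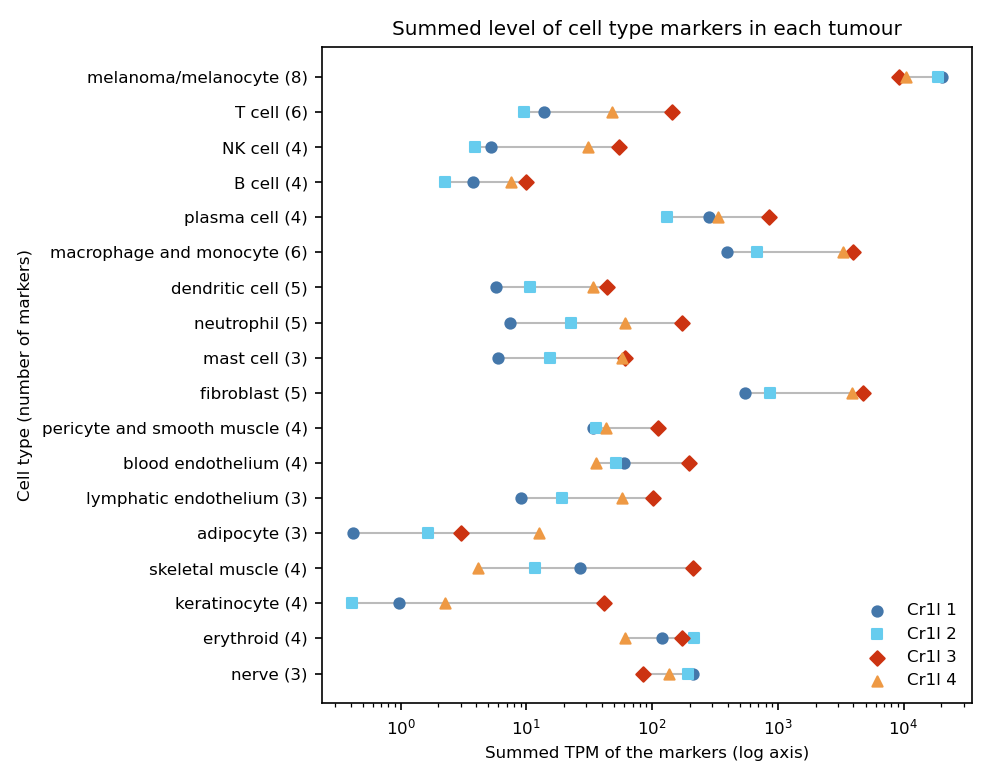
Summed TPM of the markers of each cell type in each tumour on a log axis, with the number of markers in brackets and a line from the lowest to the highest tumour. Macrophage and fibroblast markers keep the same order and nearly the same distances, blood endothelium is lowest in Cr1l 4 at 35.8 TPM, and melanoma markers are lowest in Cr1l 3 at 9173 TPM.

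Blood endothelium did not follow the fibroblasts. Its 22 genes summed to 446, 413, 1016 and 307 TPM, and 14 had the order Cr1l 3, Cr1l 1, Cr1l 2, Cr1l 4, which 2.94% of all genes had. Pecam1, which encodes the adhesion molecule CD31, was at 24.1, 20.6, 94.9 and 18.0 TPM, Cdh5, VE-cadherin, at 18.8, 15.1, 54.6 and 8.03 TPM, and Kdr, the main VEGF receptor, at 7.00, 6.20, 20.2 and 5.35 TPM. Cr1l 4, second in fibroblast genes, was lowest in these vessel genes. The endothelial to fibroblast marker ratio was 0.110, 0.0599, 0.0417 and 0.00917, a 12.0-fold range with Cr1l 1 highest and Cr1l 4 lowest. Esm1, a secreted product of sprouting vessels, departed from the list, at 16.3, 16.6, 7.21 and 2.64 TPM, as did Tek, the angiopoietin receptor, at 1.06, 2.88, 8.68 and 8.64 TPM. Without Cr1l 3 the SD of the endothelial mean was 0.221 in place of 0.846.

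The sum of the pericyte and smooth muscle genes was also high in Cr1l 3 alone, at 158, 160.1, 299.6 and 142 TPM. Rgs5, a pericyte gene, was at 18.0, 18.0, 68.6 and 14.4 TPM, and Mcam at 73.3, 63.1, 79.9 and 35.7 TPM, both lowest in Cr1l 4. Some members were high in Cr1l 4 as well, with Myl9 at 16.25, 14.05, 29.24 and 28.22 TPM and Myh11 at 1.25, 1.71, 6.91 and 5.34 TPM. Of the lymphatic genes, Lyve1, which tissue macrophages also make, was at 4.32, 15.3, 97.6 and 55.8 TPM. Prox1, the factor that defines lymphatic endothelium, was at 2.48, 2.38, 0.99 and 1.11 TPM, in the reverse order. Lyve1 and Prox1 thus gave different orders of the tumours.

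Melanocyte pigment genes ran in the reverse order and over a smaller range. Their 18 members summed to 24266, 22466, 11070 and 12656 TPM, 2.44%, 2.26%, 1.11% and 1.27% of all TPM, and 16 of 18 were highest in Cr1l 1, against 32.5% of all genes. Pmel, the fibril protein of melanosomes, was at 6978, 6414, 2950.4 and 3276 TPM, Tyr, tyrosinase, at 198, 185, 78.4 and 80.8 TPM, and Dct, dopachrome tautomerase, at 5846, 5379, 2409.9 and 2945 TPM. Cr1l 1 and Cr1l 2 lay above Cr1l 3 and Cr1l 4 in all 3. None of the 18 had an SD of at least 1. Mlana, which helps sort Pmel, spread less, at 2065, 2018, 1466 and 1499.7 TPM. Hps4 and Slc24a4 departed from the list and were highest in Cr1l 4. The ratio of Cr1l to Pmel was 0.0109, 0.0122, 0.0264 and 0.0255, since Cr1l did not share the order of the pigment genes.

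Pigment genes are known targets of MITF, the master regulator of melanocytes, which binds the M-box. The M-box letters TCATGTG were in 6 of 16 promoters of 13 pigment genes (37.5%), against 3.25% of all promoters. The stretches that hold them are shown because these genes shared their highest tumour; the M-box, or its reverse complement CACATGA, is in capitals, on the strand of the gene, 5′ to 3′, from RefSeq for GRCm38.p6. Tyrp1 is at chr4:80834144-80834194, plus strand, Tyr at chr7:87493513-87493556, minus strand, Trpm1 at chr7:64153671-64153721, plus strand, Slc24a5 at chr2:125068092-125068126, plus strand, Tspan10 at chr11:120442588-120442630, plus strand, and Dct at chr14:118052450-118052496, minus strand.
Tyrp1: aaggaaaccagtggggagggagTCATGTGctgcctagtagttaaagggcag
Tyr: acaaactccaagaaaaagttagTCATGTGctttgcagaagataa
Trpm1: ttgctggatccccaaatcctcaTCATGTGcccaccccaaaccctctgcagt
Slc24a5: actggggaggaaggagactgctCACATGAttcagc
Tspan10: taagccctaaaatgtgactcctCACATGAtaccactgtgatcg
Dct: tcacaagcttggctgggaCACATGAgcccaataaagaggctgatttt
The M-box begins 47 bases before the start of Tyrp1, 22 before that of Tyr and 142 before that of Trpm1. Tyrp1 was at 3966, 3735, 1671 and 2048 TPM, Trpm1, a cation channel, at 481, 416, 257 and 192 TPM, Slc24a5, a melanosome ion exchanger, at 341, 310.0, 169.9 and 185 TPM, and Tspan10 at 445, 391, 191 and 253 TPM. All 6 genes were highest in Cr1l 1 and had SDs from 0.51 to 0.73.

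Lineage factors had the order of the pigment genes. Mitf was at 306, 264, 125 and 132 TPM, Sox10, the neural crest factor, at 405, 372, 171 and 181 TPM, and Met, the receptor for hepatocyte growth factor, at 402, 359.8, 144 and 186 TPM. Other genes of the neural crest list did not. Ngfr, the nerve growth factor receptor that marks neural crest-like melanoma cells and nerve cells, was at 0.33, 0.11, 34.0 and 4.96 TPM, an SD of 2.31. Ednrb, the endothelin receptor of melanoblasts and of some vessels, was at 7.46, 11.8, 49.5 and 47.2 TPM. Ngfr and Ednrb departed most from the mean of the list, and both were highest in Cr1l 3.

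Proliferation genes followed the melanoma genes. Their 30 members summed to 3519, 3211, 2113 and 2030.4 TPM, 27 were highest in Cr1l 1, against 32.5% of all genes, and none had an SD of at least 1. Mki67, the antigen Ki-67 of dividing cells, was at 119.5, 109.5, 58.3 and 63.7 TPM, Top2a, the topoisomerase of dividing cells, at 248, 214, 135 and 139 TPM, and Mcm2, a part of the replication helicase, at 186, 152, 90.4 and 71.6 TPM. Against Pmel, Mki67 was steady, at 0.0171, 0.0171, 0.0198 and 0.0195. Genes of the nucleolus and MYC network summed to 3375, 3166, 2368 and 2124 TPM, with 14 of 16 highest in Cr1l 1, against the same share.

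Hypoxia and glycolysis genes formed another pattern, low in Cr1l 3 alone. They summed to 29210, 31292, 17580 and 26592 TPM. Vegfa, the growth factor of vessels, was at 337, 471, 268 and 614 TPM, Gapdh, of glycolysis, at 11672, 12194, 6740.4 and 9290.2 TPM, and Pgk1, of the same pathway, at 3454, 3664, 1838 and 3024 TPM. Cr1l 3 was lowest and Cr1l 4 did not follow it, in contrast to the melanoma genes. Some members were highest in Cr1l 4 by a wide margin. Egln3, an oxygen sensor, was at 4.46, 7.49, 16.3 and 33.7 TPM, and Ndrg1, a stress gene, at 51.0, 68.3, 100.1 and 162 TPM. The ratio of Vegfa to Kdr, the ligand to its endothelial receptor, was 48.1, 76.0, 13.3 and 115, highest in Cr1l 4 and lowest in Cr1l 3. Kdr is itself an endothelial marker, so this ratio is not independent of the endothelial level. Without Cr1l 3 the SD of the list mean was 0.211 in place of 0.357.

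Transcripts of the mitochondrial genome took 7.47%, 7.57%, 8.48% and 11.6% of all TPM, and 12 of 13 were highest in Cr1l 4, against 16.8% of all genes. mt-Co2, a subunit of cytochrome c oxidase, was at 16159, 15945, 19538 and 28222 TPM. mt-Nd3 departed, at 1626, 1448, 1309 and 1426 TPM. The nuclear genes of the respiratory chain ran differently, at 20609, 20697, 15997 and 16214 TPM in sum, with 33 of 60 highest in Cr1l 1 and 24 in Cr1l 2, against 32.5% and 21.4% of all genes. Without Cr1l 4 the SD of the mitochondrial mean was 0.105 in place of 0.263.

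Ribosomal protein genes were the steadiest list, with an SD of the mean of 0.0943. Of their 60 members, 25 had an SD under 0.1, against 7.52% of all genes. They summed to 105286, 112094, 101238 and 93759 TPM, and 39 of 60 were highest in Cr1l 2, against 21.4% of all genes. Rpl32, which spread most, was at 4143, 4734, 3072 and 2886 TPM. Chaperone genes, too, spread little as a list, with an SD of 0.124, yet Hspa1a, the inducible heat shock protein, was at 7.06, 12.1, 20.5 and 36.4 TPM. Immediate early genes had a mean of 4.18, 4.41, 5.01 and 4.97. Klf4, a factor of macrophages, endothelium and skin, was at 3.72, 6.48, 32.3 and 27.0 TPM, and Ccn2, a target of YAP signalling, at 19.1, 20.7, 7.08 and 7.96 TPM, so members of the list ran in opposite orders.

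Skeletal muscle genes set Cr1l 3 apart. The 20 genes summed to 53.9, 39.6, 530.1 and 33.7 TPM, and all 20 were highest in Cr1l 3, against 31.4% of all genes. Acta1, skeletal actin, was at 0.47, 1.37, 94.3 and 0.12 TPM, Ckm, creatine kinase of muscle, at 4.52, 3.99, 63.4 and 2.18 TPM, and Tnnc2, fast troponin C, at 0.16, 0.60, 51.0 and 0.17 TPM. Mylpf, a myosin light chain, was at 21.4, 6.12, 33.7 and 1.76 TPM and so was not confined to Cr1l 3. Muscle genes are switched on by MyoD and its relatives, which bind E-boxes such as CAGCTG. These letters were in 10 of 16 promoters of 13 muscle genes (62.5%), against 13% of all promoters, and Mb counts with 2 promoters among the 10. Stretches of 4 of them are shown because the genes shared their highest tumour; CAGCTG is in capitals, on the strand of the gene, 5′ to 3′, from RefSeq for GRCm38.p6. Acta1 is at chr8:123894969-123895018, minus strand, Ckm at chr7:19410844-19410872, plus strand, Mylpf at chr7:127211535-127211584, plus strand, and Atp2a1 at chr7:126463101-126463150, minus strand.
Acta1: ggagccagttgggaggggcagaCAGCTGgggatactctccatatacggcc
Ckm: cCAGCTGtcccccgccagctagactcagc
Mylpf: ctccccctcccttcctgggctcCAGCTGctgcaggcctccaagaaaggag
Atp2a1: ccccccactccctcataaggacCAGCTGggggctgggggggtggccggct
Atp2a1, the calcium pump of fast muscle, was at 2.75, 1.46, 29.7 and 0.91 TPM. Without Cr1l 3 the SD of the muscle mean was 0.226 in place of 1.64.

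Skin transcripts were also highest in Cr1l 3, for 19 of 20 genes without any filter, against 31.4% of all genes. Krt5, the keratin of the basal layer, was listed at 0, 0, 12.7 and 0 TPM, Krt15, of hair follicles, at 0, 0, 19.9 and 0.05 TPM, and Lor, loricrin of the outer layer, at 0.14, 0, 23.7 and 0.14 TPM. The 4 keratinocyte markers summed to 0.98, 0.41, 41.6 and 2.27 TPM. Without Cr1l 3 the SD of the skin mean was 0.633 in place of 1.21. Immune, stromal and endothelial levels were high in the same tumour, and the part of adjacent skin and muscle in those levels was not tested. Cr1l 4, whose macrophage and fibroblast sums were next to those of Cr1l 3, had 4.10 TPM of the 4 muscle markers and 2.27 TPM of the 4 keratinocyte markers, but the whole skin list summed to 92.4, 96.8, 242 and 123 TPM. Outside Cr1l 3, most of that sum was Lgals7, at 73.75, 73.68, 57.23 and 65.55 TPM in the 4 tumours. Lgals7 ran the other way, highest in Cr1l 1, so the sum understates how the other skin genes differed. Dmkn, dermokine of the epidermis, was at 1.25, 2.88, 20.3 and 15.2 TPM, and Krtdap, of differentiating keratinocytes, was listed at 0, 0, 23.3 and 5.57 TPM. Some skin genes were therefore high in Cr1l 4 as well.

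Fat and blood transcripts had further orders. The 15 fat cell genes summed to 176, 188, 541 and 334 TPM. Fabp4, which binds fatty acids in fat cells and macrophages, was at 33.2, 45.8, 297 and 93.2 TPM, and Lpl, lipoprotein lipase, at 7.80, 8.53, 108 and 87.7 TPM, both highest in Cr1l 3. Adipoq, the hormone of fat cells, was at 0.07, 0.50, 1.43 and 5.53 TPM, and the 3 fat cell markers together were highest in Cr1l 4 at 12.5 TPM. Hbb-bs, a beta globin, was at 75.6, 134, 114 and 31.1 TPM and Hba-a1, an alpha globin, at 43.4, 79.1, 57.9 and 29.8 TPM, both lowest in Cr1l 4 and highest in Cr1l 2. The globin order was therefore neither that of the macrophages nor that of the endothelium.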

How the data were processed

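Whole tumours were sequenced as RNA in the 4 samples labelled as over-expressing Cr1l. Per the submitters' processing notes, RSEM, DESeq2 and the build mm39 were used, without versions. The deposited expression values are log2(TPM + 1), per the file headers and the values, and were turned back into TPM. An exact 0 can be a failed estimate, and 37 symbols look averaged on the log scale. The authors' deposited repertoire numbers (clones, clonotypes, entropy, clonality and antibody class shares) were used as given. Because the labels do not state separate animals, the spread may be partly technical. Libraries are not directional, so antisense reads cannot be told apart.

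Genes that averaged at least 1 TPM were kept, and the SD of log2(TPM + 1), pseudocount 1, was taken over the 4 tumours. No test was made. The members and lists were chosen with earlier results of these data known. Named genes, apart from predicted genes, pseudogenes and receptor segments, are Cr1l, those with the largest and smallest SD, those that set 1 tumour apart, leading and departing members of each list, and cell type markers; others were chosen after their values were seen: Atp2a1, Cd96, Ighg1, Ly6c2, Mb, Psmb5, Slc24a5, Trpm1 and Tspan10. Scripts were tested on simulated data. Some results are not reported here.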

Additional observations from a re-analysis of the deposited data

Results flagged for a closer look

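In some results 1 tumour stood far from the others: its gap to the nearest of the other tumours, as a share of the whole range, was above Dixon's critical value for 4 samples. Chance gives about 1 such group in 20, and over all 15018 genes 714 (4.75%) met it. The genes named here were chosen partly because 1 tumour stood apart, so the 16 of 162 that met it are a description.

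Of 36 list means 1 met it, and of 20 repertoire measures 1, no more than chance gives. Cr1l 3 stood high in the skeletal muscle list mean (0.967) and in the IgA share of IGH in the repertoire table (0.886). Among genes it stood high in the muscle genes Acta1 (0.831), Myl1 (0.874), Tnnc2 (0.915) and Tnnt3 (0.881), and in the skin genes Krt5 (1), Krt15 (0.984) and Lor (0.959). It also stood high in the pericyte gene Rgs5 (0.86) and the chemokine Cxcl9 (0.877), and low in the nuclear receptor gene Nr1i2 (0.918).

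Cr1l 4 stood high in Hps4 (0.856), which serves the making of melanosomes, in Ly6g (1) and in Snora9 (1). Cr1l 2 stood high in Snora52 (1) and Snord15b (1), and Cr1l 1 in Fgl1 (0.868). Ly6g reached 0.44 TPM in Cr1l 4, and a ratio of 1 means that the other tumours shared 1 value, here 0 TPM.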

How the results depend on the processing

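The limits are the 4 tumours, an unknown number of reads and a scale on which all genes share a fixed total. The number of genes with an SD of at least 1 (1567) was 2412 with a pseudocount of 0.1, 554 with 5, and 677 among genes that averaged at least 10 TPM. Without a filter 5453, 8346 and 5721 genes were highest in Cr1l 2, Cr1l 3 and Cr1l 4, and at 10 TPM 2038, 2371 and 1323. The order of the macrophage mean was held by 975 genes at 10 TPM. With a pseudocount of 5 the SD of the list mean was 0.779 for T cell, 0.76 for plasma cell, 1 for skeletal muscle and 0.658 for skin genes; with 0.1 it was 1.93 for skin. The plasma cell SD was 0.589 after rescaling without mitochondrial, globin and immunoglobulin genes, which leaves out most of that list's antibody genes, and the ribosomal SD was 0.0615 with median-of-ratios scaling. In all, 11 of 36 list means moved by over 1.5-fold with a pseudocount of 5 and 9 without Cr1l 3. Among SDs of named genes, 94 of 348 moved with a pseudocount of 5, all downward, 45 with 0.1, all upward, 60 of 332 without Cr1l 3 and 42 of 342 without Cr1l 4. The cause of the other differences was not tested. The skin list at 10 TPM and the mitochondrial list after that rescaling gave no value.

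With each tumour left out in turn, 3743 to 7085 genes were highest in Cr1l 2 and 2992 to 5211 in Cr1l 4, and 3172 to 3546 held the macrophage order, since 3 tumours have fewer orders. The SD of the list mean ranged from 0.794 to 1.53 for T cells, 0.221 to 1.02 for endothelium, 0.226 to 1.91 for skeletal muscle, 0.633 to 1.4 for skin and 0.211 to 0.434 for hypoxia, in each case lowest without Cr1l 3. It ranged from 0.105 to 0.322 for the mitochondrial genome and 0.0614 to 0.115 for ribosomal genes, lowest without Cr1l 4. The fold between tumours was 4.6 to 19.9 for TRA clones, 4.26 to 14.4 for TRB, 3.29 to 10.7 for IGH and 3.57 to 10.8 for IGL. The SD of the macrophage, fibroblast, pigment and proliferation means stayed within 1.5-fold of the value given under every alternative run. The number of lists highest in Cr1l 3, whose alternatives were chosen after seeing the data, was 17 to 24. No paired analysis was possible because the tumours form 1 group.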
